A study of Mus musculus with 5 samples.

Results

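Chromatin immunoprecipitation with sequencing (ChIP-seq) with an antibody against SIRT7 was done in hybrid mouse cells, and the results below concern the autosomes of the wild-type (WT) cells, read separately for the 2 parental genomes. The cells are labelled TTF, female, strain C57BL6/CAST hybrid; the term TTF is not spelled out, and the labels do not say which deposited read class, genome1 or genome2, is C57BL6. The groups used were WT ChIP (2 libraries), WT input (1 library of sheared chromatin taken before the antibody step), SIRT7-KO ChIP (1 library) and SIRT7-KO input (1 library), all crosslinked for 10 min in 1% formaldehyde. Separate cultures are not stated for the 2 WT ChIP libraries, and a p-value then reflects nothing beyond how these libraries vary, possibly for technical reasons alone. Each 1 Mb bin of the mm10 build entered where genome1 and genome2 together had at least 1000 reads in each of the 3 WT libraries, which kept 2402 of 2473 autosomal bins. Of the 71 bins left out, 55 had 0 reads of any kind in these libraries, and 154 bins of the X chromosome passed the same minimum.

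The measure, called the allelic shift below, is log2(genome1 reads/genome2 reads) in ChIP minus the same in WT input. A positive shift means that ChIP reads held a larger share of genome1 than input reads of the same bin, and the subtraction removes whatever read assignment or copy number does alike to both. SIRT7 is a NAD-dependent deacylase of the sirtuin family that acts on histones and other nuclear proteins and is found largely in the nucleolus. In a hybrid cell, sequence differences between the parental genomes show which copy a read comes from, so a protein bound to 1 copy more than to the other would shift the ratio. Imprinted genes, which are expressed from the copy of 1 parent, are a common place to look for such a difference.

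WT ChIP replicates 1 and 2 and the WT input held 174003957, 167007601 and 224205689 reads, and the KO ChIP library held 4968189. The median kept bin had 34487, 32120 and 42376 allelic reads in the WT libraries, and 938 in KO ChIP. That depth gave a median counting standard error (SE) of the shift of 0.021 and 0.022 (log2) for the WT replicates and 0.098 for KO. Counting SE and the intervals given here cover counting alone and treat each read as its own molecule. An SE printed beside an edgeR adjusted p comes from the edgeR fit described below. That fit also uses the spread between the WT ChIP replicates. The kept bin nearest to the minimum, on chromosome 14 from 42000001 to 43000000, had 1047 reads in its shallowest library and shifts of 0.11 and 0.37. The nearest bin not kept, on chromosome 2 from 175000001 to 176000000, had 994 and shifts of -0.39 and -0.099.

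Across autosomes the ChIP and input ratios were close. The median shift was -0.00082 in replicate 1 and -0.00065 in replicate 2, and the mean of both replicates ran from -0.069 at the 5th to 0.064 at the 95th percentile of bins. Only 83 bins had a mean shift over 0.1 in size and 17 over 0.2. The replicates also differed from each other by more than counting: their difference, which needs no input, gave a chi-square with a median of 0.941 over bins, where pure counting gives 0.455, and it passed 2 counting SE in 409 bins (17.0%). The SD of the mean shift over bins was 0.048 and the SD of the difference between replicates 0.042. These SDs are on different scales. The mean averages the noise of both replicates and carries that of the shared input, while the difference adds the noise of both and holds no input.

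Both replicates had a shift of 1 sign and over 2 counting SE in 308 bins (12.8% of bins), 145 with more (6.04%) and 163 with less genome1 in ChIP (6.79%). Both shifts are taken against the same input library, so this count describes the bins and is no test. With replicate 1 left out, 577 bins passed 2 SE in replicate 2 alone, and with replicate 2 left out, 701 passed in replicate 1 alone. The fit across all bins (edgeR quasi-likelihood test, Benjamini-Hochberg adjusted p under 0.05) called 33 bins (1.37% of the 2402), 19 with more genome1 in ChIP (0.791%) and 14 with less (0.583%). All 33 were among the 308. They lay on 15 chromosomes and were small in size, 0.088 to 0.56 with a median of 0.13. On X, for comparison, the median shift was 0.091, and 94 of 154 bins (61.0%) passed 2 SE in both replicates, 91 of them with more genome1. On X 56 bins (36.4%) were called, all with more genome1. From summed reads X shifted by 0.12 and 0.11 in the WT replicates, and by 0.12 ± 0.0094 (counting SE) in KO ChIP against KO input. Genome1 made up 46.7% of X in KO input, 48.7% in KO ChIP and 51.5% in WT input. The KO ChIP share of X thus lay between both inputs, and the part of this in the KO shift was not tested. KO shifts of whole autosomes ran from -0.13 to 0.13. The difference between X and autosomes was not tested.

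**Figure D1:**
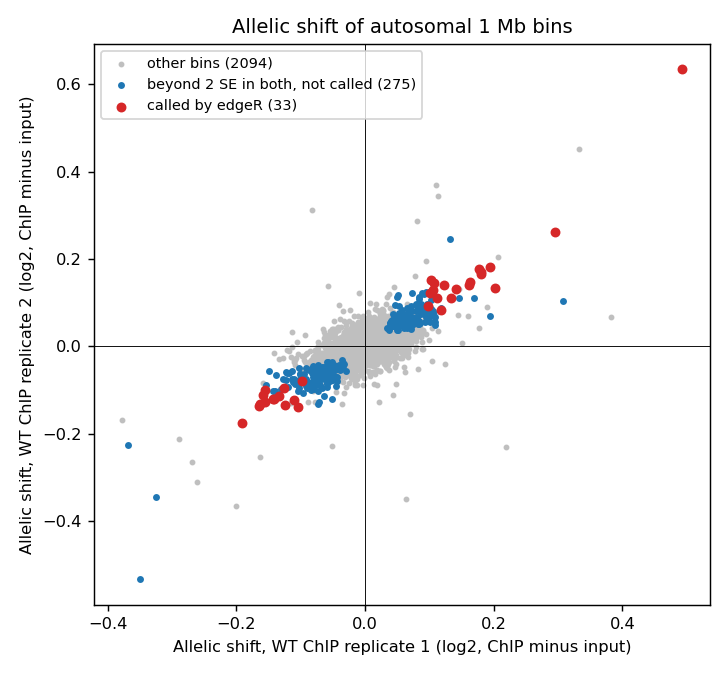
Allelic shift (log2, ChIP minus input) of the 2402 autosomal bins in WT ChIP replicate 1 (x) and replicate 2 (y), which share 1 input. The 33 bins called by edgeR (red) lie away from the centre on the diagonal, at mean shifts of 0.088 to 0.56 in size; blue bins passed 2 counting SE in both replicates without being called.

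The number of called bins moved with the tool, the treatment of the spread and the scaling. DESeq2 called 11 (0.458%) and limma-voom 38 (1.58%), while edgeR called 66 (2.75%) with no floor on the dispersion and 125 (5.2%) with 1 spread pooled over all bins. Among scalings, edgeR called 20 (0.833%) after the autosomal median was subtracted and 117 (4.87%) with TMM factors for each allele, 27 with more and 90 with less genome1 against the 19 and 14 above. All 33 bins were called under the pooled spread and the TMM factors, 29 with no floor, 20 after median subtraction and 11 by DESeq2.

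Among called bins with more genome1 in ChIP, the highest shift but 1 was on chromosome 12, from 41000001 to 42000000. That bin holds Immp2l, encoding a subunit of a peptidase of the mitochondrial inner membrane, and Lrrn3, a neuronal leucine-rich repeat membrane protein. Genome1 made up 60.6% of allelic reads in input, 65.4% in ChIP replicate 1 and 64.8% in replicate 2. Both ChIP libraries were above the input, which the choice of the highest and lowest bins required. The ratio was 1.21-fold that of input (log2 0.28, SE 0.027, edgeR adjusted p 0.00038). Genome1 reads were at log2 ChIP over input of 0.012 and genome2 reads at -0.27, so the bin differs from input in genome2. The 1 called bin with a larger shift was on chromosome 2 from 98000001 to 99000000 and holds no protein-coding gene. It had 93.4% genome1 in input, 95.2% and 95.6% in ChIP (log2 0.56, SE 0.052, edgeR adjusted p 0.00038). Only 1.0% of its input reads were assigned to a genome, against 24.9% at the 5th percentile of autosomal bins. Its 4128732 input reads are therefore represented here by a small part.

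The bins next in size differed widely in their input share. The bin on chromosome 4 from 114000001 to 115000000, with the forkhead factors Foxd2 and Foxe3, had 37.1% genome1 in input and 40.3% and 40.0% in ChIP (log2 0.19, SE 0.024; edgeR adjusted p 0.0016). Here genome1 was above input (log2 0.16) and genome2 close to it (-0.027). The bin of Bmp2, a ligand of the bone morphogenetic protein pathway, on chromosome 2 from 133000001 to 134000000, had 79.1% in input and 81.1% in each ChIP library (log2 0.18, SE 0.028; edgeR adjusted p 0.0044). The bin of Kcnj2 and Kcnj16, which encode inward rectifier potassium channels, on chromosome 11 from 111000001 to 112000000, had 46.1% in input and 49.2% and 49.0% in ChIP. In all 3 bins both ChIP libraries lay above input, as the choice of bins required, and close to each other.

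Chromosome 12 held 5 of the 19 called bins with more genome1 and none with less, among 117 kept bins, where 0.791% and 0.583% of all bins were called in these directions. Beside the Immp2l bin these were the bin of Nova1, an RNA-binding splicing regulator of neurons, from 46000001 to 47000000, with 52.5% genome1 in input and 55.6% and 55.4% in ChIP, and its neighbour from 47000001 to 48000000, which has no protein-coding gene, with 58.1% in input and 61.4% and 60.3% in ChIP. The bin of Rps7, a protein of the small ribosomal subunit, from 28000001 to 29000000, had 28.5% in input and 30.8% and 30.5% in ChIP. The fifth, from 58000001 to 59000000, holds Sstr1, a somatostatin receptor, and Sec23a, a coat protein of vesicles leaving the endoplasmic reticulum. The bins of Cntn6, a contactin of neural adhesion (chromosome 6, 104000001 to 105000000; 27.6% in input, 29.9% and 29.7% in ChIP), and of Sox1 and Atp11a (chromosome 8, 12000001 to 13000000; 58.3%, 60.6% and 60.5%) complete the 10 highest.

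Among bins with less genome1 in ChIP, the lowest was on chromosome 1, from 70000001 to 71000000, with Spag16, a protein of the sperm axoneme, and Vwc2l. Genome1 made up 43.0% in input, 39.8% in replicate 1 and 40.1% in replicate 2, a ratio 0.881-fold that of input (log2 -0.18, SE 0.025; edgeR adjusted p 0.0021). Genome1 reads were at -0.23 and genome2 reads at -0.048 against input. The first bin of chromosome 11 with reads, from 3000001 to 4000000, which holds the kinase gene Limk2 and 19 other protein-coding genes, had 43.0% in input and 40.2% and 40.7% in ChIP (log2 -0.15, SE 0.020; edgeR adjusted p 0.0020). Only 16.4% of its input reads were assigned to a genome.

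The other named bins with less genome1 hold 1 to 5 protein-coding genes each. The bin of Thsd7a and Phf14 (chromosome 6, 12000001 to 13000000) had 43.5% in input and 40.7% and 41.3% in ChIP. The bin of Pex2, a peroxisome assembly protein, and Zfhx4 (chromosome 3, 5000001 to 6000000) had 49.8%, 47.1% and 47.6%. The bin of Ghr, the growth hormone receptor (chromosome 15, 3000001 to 4000000), had 60.1%, 57.4% and 58.2%. In each of these the ChIP libraries were both below input, as the choice of bins required. Those of Epha3, an ephrin receptor (chromosome 16, 63000001 to 64000000), Zfp521 (chromosome 18, 13000001 to 14000000), Gad2 (chromosome 2, 22000001 to 23000000), Cox10 (chromosome 11, 64000001 to 65000000) and the potassium channel gene Kcnh8 (chromosome 17, 52000001 to 53000000) were at log2 -0.13, -0.13, -0.13, -0.13 and -0.12. Their edgeR adjusted p-values were between 0.0084 and 0.029. Wilson 95% intervals of the genome1 share in the 20 named bins reached 0.238 to 0.606 percentage points to each side.

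**Figure D2:**
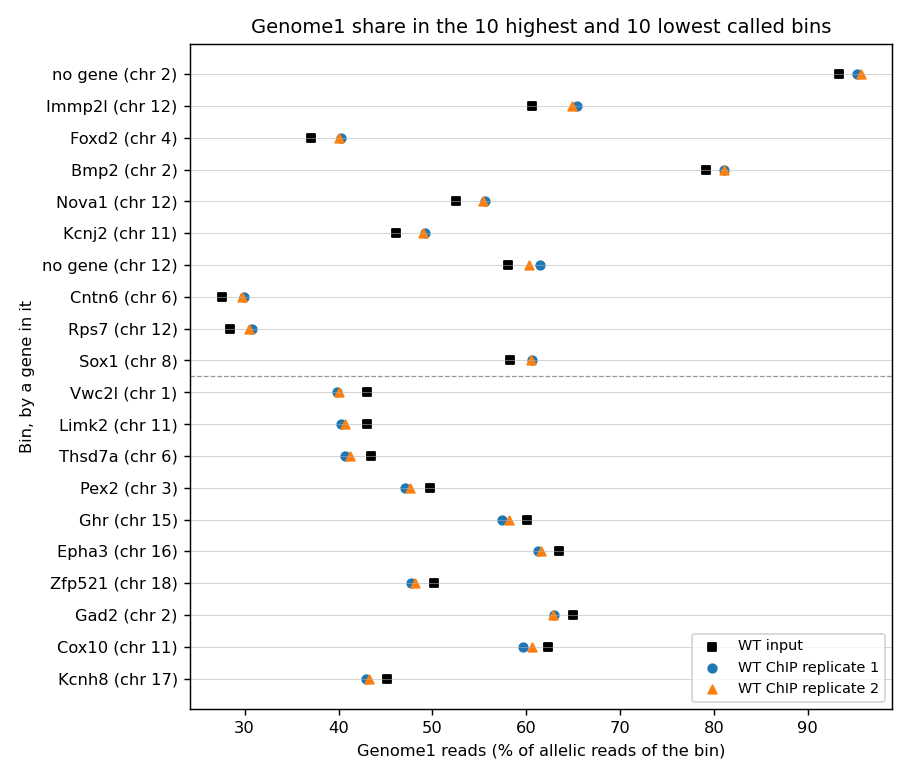
Genome1 share of allelic reads (%) in WT input (squares) and the WT ChIP replicates (circles, triangles) for the 10 called bins with the highest (above the dashed line) and the 10 with the lowest shift, labelled by a gene it holds or, for 2 bins without a protein-coding gene, as no gene. In each bin both ChIP libraries lie on the same side of input, as the choice of bins required. The mean shift of both is 0.12 to 0.56 in size (log2).

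Read for each genome separately, called bins differ between the genomes by their choice, and many were below input in both. Values are log2 ChIP over input, scaled to the allelic reads of all kept autosomal bins. In the 19 bins with more genome1, the median was -0.032 for genome1 and -0.20 for genome2. Genome2 was below 0 in 16 of them and genome1 in 12. In the 14 bins with less genome1, the median was -0.11 for genome1 and -0.0012 for genome2. Genome1 was below 0 in 12 of them and genome2 in 7. Over all bins the medians were -0.0098 for genome1 and -0.0089 for genome2. Total signal was below input in 25 of the 33 bins (75.8%) against 53.0% of all bins, and the median bin held 2 protein-coding genes against 5. These shares are descriptions and were not tested. By quintile of gene number, 2.5% of the 480 bins with fewest genes were called and 0.208% of the 481 with most, and bins past 2 SE in both replicates made up 17.5% and 9.56%. Median counting SE was alike in both quintiles, 0.021 and 0.022.

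**Figure D3:**
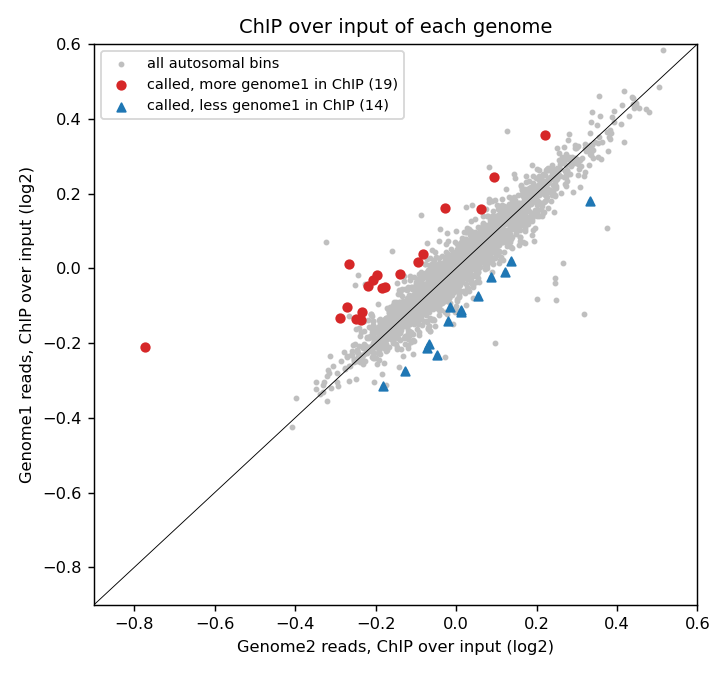
Log2 ChIP over input of genome2 reads (x) and genome1 reads (y) in each autosomal bin, mean of the WT replicates, with the line of equal values. Called bins with more genome1 (red, 19) lie above the line, 16 of them left of 0 on the genome2 axis and 12 under 0 on the genome1 axis. Those with less genome1 (blue, 14) lie below it, 12 of them under 0 on the genome1 axis and 7 left of 0 on the genome2 axis.

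Some called bins stood apart from their chromosome already in input. The input log2 ratio of a bin lay a median of 0.20 from the median of its chromosome in called bins and 0.091 in all bins, and over 0.5 in 10 of 33 (30.3%) against 14.5% of all. By quintile of this distance, bins past 2 SE in both replicates made up 7.50% in the lowest and 16.4% in the highest, with 16.6% in the middle quintile. As a description across the 2402 bins, which share libraries, Spearman's rho of the size of the shift was -0.16 with allelic input reads, -0.12 with the share of reads assigned, -0.061 with gene number and -0.025 with the input ratio. The part of read assignment or of copy number in these differences was not tested.

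Neighbouring bins were little alike. Over 2378 pairs of neighbours the Spearman correlation of the mean shift was 0.12, against 0.43 over 146 pairs on X. A run, meaning at least 2 neighbouring bins past 2 SE in both replicates in 1 direction, occurred 36 times on autosomes (77 bins, 17 chromosomes), 20 with more and 16 with less genome1, and 33 of the 36 had 2 bins. On X there were 12 runs with 82 bins, the longest of 17. The longest autosomal run had 5 bins, on chromosome 4 from 27000001 to 32000000, around Epha7, an ephrin receptor, and Map3k7, the kinase TAK1. Genome1 made up 57.9% of its reads in input and 59.3% and 59.4% in ChIP. Runs of 3 bins lay on chromosome 8 from 102000001 to 105000000, with the cadherin genes Cdh11 and Cdh5 (57.3%, 58.9% and 59.0%), and from 39000001 to 42000000, with the scavenger receptor gene Msr1 (59.4%, 61.1% and 60.7%). The Nova1 pair on chromosome 12 was the 1 run with 2 called bins (55.4%, 58.6% and 57.9%). The Immp2l bin formed a run with its neighbour from 40000001, which holds Dock4 (62.2%, 65.2% and 64.6%).

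All 16 runs with less genome1 had 2 bins. The largest, on chromosome 1 from 69000001 to 71000000, holds Erbb4, a receptor of neuregulins, and Ikzf2, and had 42.4% genome1 in input and 39.9% and 40.3% in ChIP. Others were on chromosome 6 from 42000001 to 44000000 (42.5%, 40.3% and 40.8%) and from 12000001 to 14000000 (42.6%, 40.7% and 41.0%), on chromosome 3 from 4000001 to 6000000 (51.7%, 49.8% and 49.9%) and on chromosome 18 from 13000001 to 15000000 (48.2%, 46.3% and 46.6%). Each holds 1 bin of the 33 called. Of all 36 runs, 23 held none.

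Whole chromosomes shifted by little. Summed over bins, the shift ran from -0.013 on chromosome 6 to 0.014 on chromosome 7, against 0.11 on X, although the genome1 share of input ran from 35.6% on chromosome 1 to 71.3% on chromosome 19. On 11 of 19 autosomes both replicates were beyond their 95% counting interval, 6 with more and 5 with less genome1, and replicates differed by at most 0.0067. On 4 of these 11 (chromosomes 4, 11, 14 and 16) the median over bins had the other sign; a sum over bins of unequal input ratio also moves with how reads are spread over those bins. Medians over bins ran from -0.013 to 0.012. Chromosome 6 was low both ways, and 18 of its 147 bins passed 2 SE in both replicates with less genome1 and 7 with more, against 6.79% and 6.04% of all bins.

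**Figure D4:**
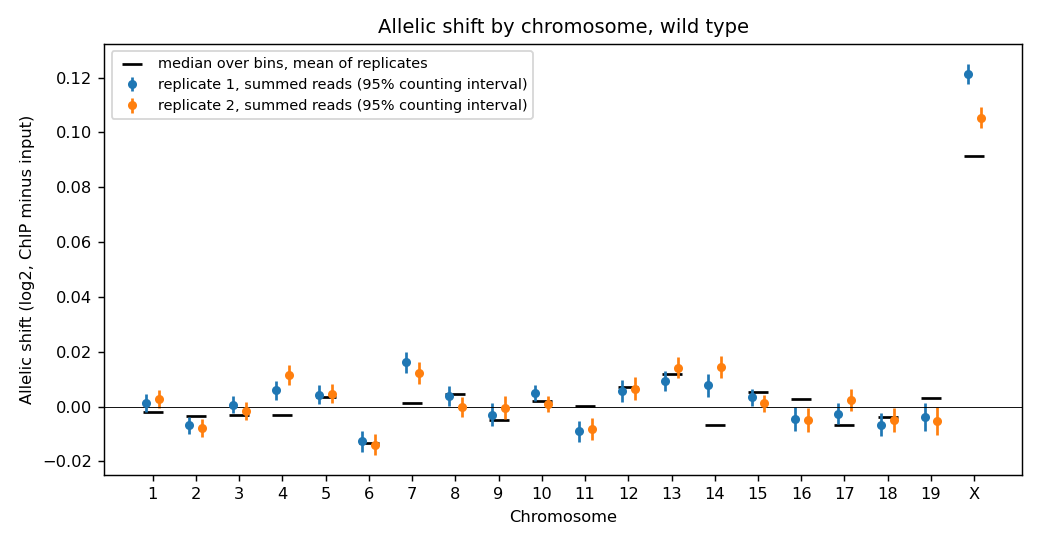
Allelic shift (log2, ChIP minus input) of each chromosome from summed reads in WT ChIP replicates 1 and 2, with 95% counting intervals, and the median over its bins (black bars). Autosomes lie between -0.014 and 0.016 in each replicate, and X lies at 0.12 and 0.11.

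In 229 blocks of 10 neighbouring kept bins, the weighted mean of bin shifts (weights by counting error) ran from -0.032 to 0.061, and both replicates were beyond 2 SE on 1 side in 42 blocks, 23 with more and 19 with less genome1. Only 3 blocks passed 0.05 in size. The highest, on chromosome 12 from 33000001 to 43000000, had 0.069 and 0.053 and includes the Immp2l bin. The other two, on chromosome 2 from 94000001 to 104000000 and from 124000001 to 134000000, include the bin at 98000001 and the Bmp2 bin. On X, 13 of 15 blocks were beyond 2 SE in both replicates, all with more genome1, up to 0.21.

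A stretch of chromosome 2 gave shifts with far larger errors. From 65000001 to 133000000 the median of 67 bins was 92.0% genome1 in WT input and 91.6% in KO input, against 61.8% in the WT input over the rest of the chromosome. In 18 of these bins genome1 exceeded 98% of input, and genome2 had only 101 to 707 input reads per bin, which gave a median counting SE of 0.12. Of the 67 bins, 8 (11.9%) passed 2 SE in both replicates, 4 in each direction, and 1 (1.49%) was called, the bin at 98000001; these shares are near the 12.8% and 1.37% of all bins. The largest negative shifts among the 308 bins were here: the bin from 110000001 to 111000000 had -0.35 and -0.53 on 322 genome2 input reads and was not called (edgeR adjusted p 0.092). The stretch was singled out after its values were seen. The source of its few genome2 reads was not tested.

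No 1 Mb bin with an imprinted gene was called, and a difference confined to part of a bin was not resolved. Of 58 listed imprinted gene symbols 57 were placed, in 31 bins, all kept, and 0 of the 31 were called by edgeR (1.37% of all bins). At an unadjusted p under 0.05 edgeR had 2 of the 31, against 276 of 2402 bins (11.5%). DESeq2 and limma-voom called 0, and edgeR with the spread pooled over bins called 1, against 125 of all bins (5.2%). Both replicates passed 2 SE in 3 of the 31 (9.68%, against 12.8% of all bins), all with more genome1. The list's median shift was 0.0014, against -0.00091 over all bins, and -0.012 with TMM factors for each allele. Shifts ran from -0.047 to 0.091, and Wilson 95% intervals of the genome1 share reached 0.316 to 0.969 points to each side. The labels do not say which parent gave which genome, so no maternal or paternal direction can be read.

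The 3 bins were those of Dio3, Inpp5f and Grb10. Their WT input log2 ratios, in this order, were 0.82, -1.5 and -0.28, against chromosome medians of 0.84, 0.65 and 0.29. Grb10 also reaches into the bin from 11000001 to 12000000, which had shifts of 0.055 and 0.031 and did not pass in both replicates. Dio3, a thyroid hormone deiodinase at the end of the Dlk1-Dio3 domain (chromosome 12, 110000001 to 111000000), had 63.9% genome1 in input and 65.5% and 65.1% in ChIP (log2 0.087, SE 0.025; edgeR adjusted p 0.12), and its adjusted p was 0.011 with the spread pooled over bins. Inpp5f, an inositol phosphatase gene with an imprinted transcript (chromosome 7, 128000001 to 129000000), had 26.3%, 27.4% and 27.6% (log2 0.091, SE 0.036; edgeR adjusted p 0.26). Grb10, an adaptor that restrains insulin and growth factor signalling (chromosome 11, 12000001 to 13000000), had 45.2%, 46.5% and 46.1% (log2 0.065, SE 0.034; edgeR adjusted p 0.44).

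Several well known imprinted domains were near 0 in both replicates. The bin of H19, a long non-coding RNA, and Igf2, the growth factor it is regulated with (chromosome 7, 142000001 to 143000000), had shifts of -0.0057 and -0.014. Its neighbour with Kcnq1ot1, the antisense RNA of the Kcnq1 domain, and the cell cycle inhibitor Cdkn1c had 0.022 and 0.0089. The bin of Dlk1 and Meg3 (chromosome 12, 109000001 to 110000000), next to that of Dio3, had -0.00055 and 0.0060. Igf2r, the receptor that clears IGF2, with its antisense RNA Airn (chromosome 17, 12000001 to 13000000), had -0.0079 and 0.0064. Each was within 1 counting SE of 0 in both replicates. These values are sums over whole 1 Mb bins, which hold 28, 19, 3 and 15 protein-coding genes in the order named. They do not show whether the genomes differ at the imprinted gene alone.

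Further loci were small or differed between replicates. Peg3, a zinc finger gene (chromosome 7, 6000001 to 7000000), had -0.029 and -0.035, and the bin of Snrpn and Ube3a (chromosome 7, 59000001 to 60000000) had -0.020 and -0.074. Gnas, the stimulatory G protein subunit (chromosome 2, 174000001 to 175000000), had -0.0065 and -0.025. Mest (chromosome 6, 30000001 to 31000000) had -0.0064 and 0.055, a different sign in each replicate. Rasgrf1 (chromosome 9, 89000001 to 90000000) had -0.049 and -0.040, and Zdbf2 (chromosome 1, 63000001 to 64000000) had 0.043 and 0.027. The next bin also holds part of Rasgrf1 and had 0.0087 and -0.015. For Snrpn the next bin had -0.017 and 0.020. None of these had both replicates beyond 2 counting SE.

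**Figure D5:**
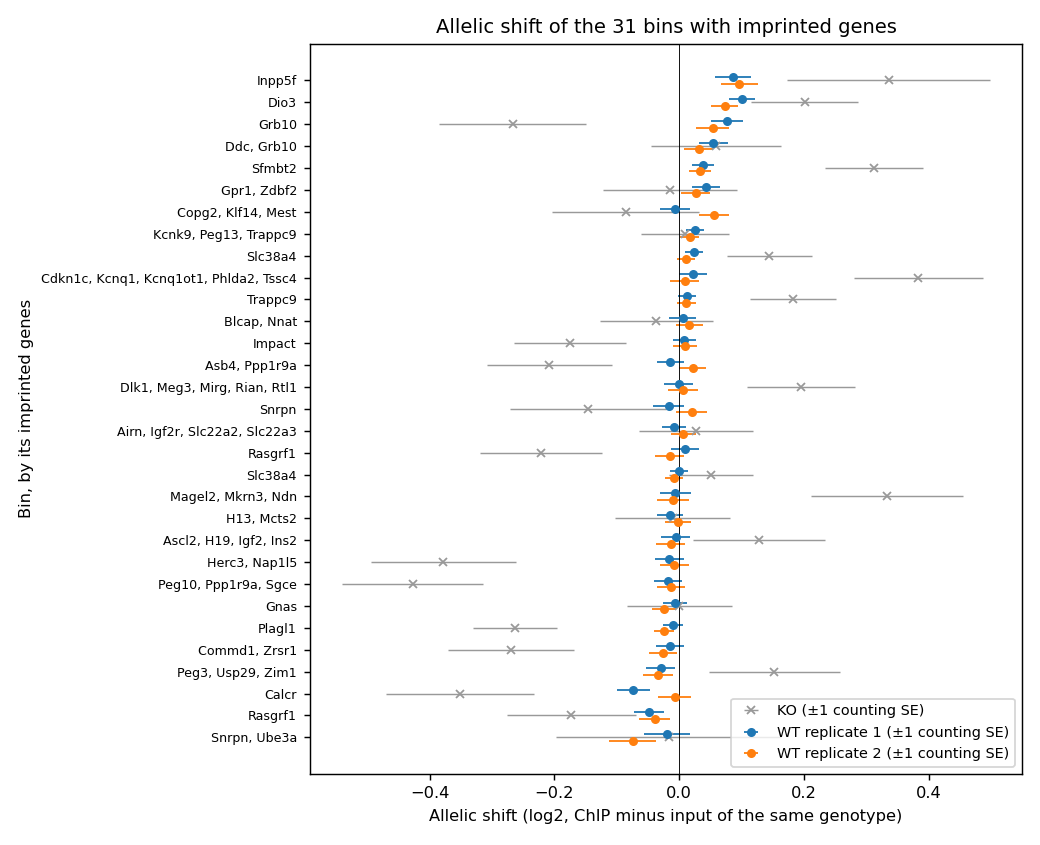
Allelic shift (log2, ChIP minus input of the same genotype) of the 31 bins with imprinted genes in WT ChIP replicates 1 and 2 and in KO, with bars of 1 counting SE. WT values reach at most 0.10 in size, and the KO library, with a median counting SE of 0.098 per autosomal bin, spreads more widely.

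Calls in other gene groups are given beside the 1.37% of all bins, and no difference from it was tested. Of 80 bins with olfactory receptor genes 1 was called (with less genome1, on chromosome 6 from 43000001 to 44000000), of 195 with zinc finger (Zfp) genes 1 (the Zfp521 bin, with less), and of 85 with ribosomal protein genes 1 (the Rps7 bin, with more). None was called by edgeR among 49 bins of vomeronasal receptors, 8 of defensins, 8 of histone clusters, 7 of sirtuins, 5 of the major histocompatibility genes, 4 of natural killer receptors and 2 of protocadherins, together 81 bins, against 1.37% of all bins. In these 81 bins edgeR had 9 at an unadjusted p under 0.05, against 11.5% of all bins, and DESeq2 and limma-voom called 0. With TMM factors and with the pooled spread edgeR called 3 each, against 4.87% and 5.2% of all bins. Sirt7 itself lies in a bin of chromosome 11 (120000001 to 121000000) that had 55.8% genome1 in input and 54.8% and 55.1% in ChIP, shifts of -0.059 and -0.041 (edgeR adjusted p 0.45). With 46 protein-coding genes the bin cannot check the knockout.

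The KO libraries, which share no library with the WT ones, are set beside the called bins as values. Of the 33 called bins 22 (66.7%) had a KO shift of the WT sign, against 51.9% of all bins. Among these 33, 7 were beyond 2 counting SE in the WT direction and 1 in the other. No such share over all bins is given here, so these counts do not show whether called bins differ from others. Of the 308 bins past 2 SE in both WT replicates, 171 (55.5%) had a KO shift of the WT sign. With the KO shift of the chromosome subtracted, the WT sign was found in 21 of the 33 (63.6%), 158 of the 308 (51.3%) and 50.3% of all bins. In the bins with more genome1 the median was 0.14 in WT and 0.020 in KO, and in those with less -0.13 and -0.078. The Immp2l bin had 0.10 ± 0.094 (counting SE) in KO, the Foxd2 bin 0.033 ± 0.093, the Bmp2 bin 0.35 ± 0.14 and the Spag16 bin 0.022 ± 0.11. Most KO values of these 33 bins were within 2 counting SE of 0. The KO input had other genome1 shares than the WT input, and the KO ChIP share lay between the 2 inputs on 18 of 19 autosomes and on X. On chromosome 6 genome1 made up 63.8% in KO input, 61.7% in KO ChIP and 37.6% in WT input, and on chromosome 7 it made up 30.6%, 32.5% and 58.4%. The part of this in the KO shifts was not tested. A fit of all 5 libraries with edgeR called the difference WT minus KO in 50 autosomal bins (2.08%), 2 of them among the 33; only the WT ChIP libraries are replicated, so no replicate checks the KO side.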

How the data were processed

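Deposited counts were whole reads per 1 Mb bin of mm10 in each library, with columns for all reads, genome1, genome2 and unassigned reads; the authors' second table was not used here. The submitters' processing notes name Bowtie2 2.2.9, SAMtools 0.1.19, Trimmomatic 0.36 and FastQC 0.11.3 without their roles. The method of allele assignment is not given in the sources. The members and lists were chosen with earlier results of these data known. Counting SE came from the delta method. Genome1 and genome2 counts of the 3 WT libraries (6 columns) were fitted with edgeR 4.0.16 (R 4.3.3; glmQLFit, glmQLFTest) with library as a block, allele, and allele by ChIP as the tested term, equal offsets for both alleles and a dispersion floor of 1e-04; p-values were Benjamini-Hochberg adjusted over 2556 bins of autosomes and X. Only the WT ChIP pair gives a residual degree of freedom (1), and the prior degrees of freedom (9.11) were estimated from that. A dispersion under the floor was fitted in 1720 bins, and with no floor 31 test statistics were negative. On simulated counts of 2556 bins, 51% of 100 bins seeded with a shift of 0.1 and 100% of 100 with 0.2 were called, and 5 of 2356 unchanged bins. These counts were drawn with a dispersion of 1e-04 in every bin, the value of the floor, so they do not carry the uneven spread of the real bins. WT minus KO was tested in a fit of all 5 libraries. Bins named were the 10 highest and 10 lowest called bins, the 5 longest runs each way, bins of imprinted loci, the Sirt7 bin and those nearest the minimum; other bins were named after their values were seen. Genes are RefSeq protein-coding genes of the same build. Tried as alternatives were limma-voom (limma 3.58.1), DESeq2 1.42.0, a quasi-Poisson fit, other scalings, floors, minimums and limits, and each WT ChIP library left out.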

Additional observations from a re-analysis of the deposited data

Results flagged for a closer look

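In 2 of the called bins and 2 bins with imprinted genes the edgeR test of WT minus KO over all 5 libraries passed an adjusted p of 0.05, as did 50 of the 2402 autosomal bins. KO has 1 ChIP and 1 input library, so the spread in this test is that of the WT ChIP pair and no replicate checks the KO values. In the Limk2 bin (chromosome 11, 3000001 to 4000000) WT minus KO was -0.317 (log2; edgeR adjusted p 0.035), with WT shifts of -0.17 and -0.14 and a KO shift of 0.17 ± 0.071 (counting SE); genome1 made up 40.4% in KO input, 43.2% in KO ChIP and 43.0% in WT input. In the Pex2 bin (chromosome 3, 5000001 to 6000000) it was 0.425 (edgeR adjusted p 0.049), with -0.15 and -0.13 in WT and -0.57 ± 0.10 in KO. There genome1 made up 68.1% in KO input, 59.1% in KO ChIP and 49.8% in WT input. In the bin of Plagl1, an imprinted zinc finger gene (chromosome 10, 13000001 to 14000000), it was 0.246 (edgeR adjusted p 0.044), with -0.010 and -0.025 in WT and -0.26 ± 0.067 in KO, and genome1 made up 50.7% in KO input, 46.1% in KO ChIP and 40.0% in WT input. In the bin of the imprinted gene Sfmbt2 (chromosome 2, 10000001 to 11000000) it was -0.277 (edgeR adjusted p 0.049), with 0.038 and 0.033 in WT and 0.31 ± 0.078 in KO, and the shares were 57.3%, 62.5% and 62.7%. In the Plagl1, Sfmbt2 and Pex2 bins the KO ChIP share lay between both inputs, and in the Limk2 bin it lay close to and just above the WT input. The KO side rests on 1 ChIP library of 4968189 reads.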

How the results depend on the processing

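The 33 called autosomal bins became 66 with no dispersion floor, 11 with DESeq2, 117 with TMM factors for each allele, 20 after median subtraction and, in an alternative added after the data were seen, 125 with the spread pooled over bins; the other 9 settings gave 32 to 38. The 308 bins past 2 counting SE in both replicates became 1713 by sign alone, 126 at 3 SE, and 577 to 701 with 1 ChIP library left out, where the criterion asks 1 library in place of 2. The 36 runs became 420 by sign alone, 6 at 3 SE and 3 with at least 3 bins. The median shift of -0.00091 became -0.014 with TMM factors, -0.00018 after median subtraction, 0.0042 from summed reads, and -0.00082 to -0.00065 with 1 ChIP library left out. The median over imprinted bins, 0.0014, became -0.012 with TMM factors. For the other values the cause was not tested. Of the 20 named bins 11 lost the call with DESeq2, 3 with no floor and 2 after median subtraction. With 1 WT ChIP library left out the fit has no residual degrees of freedom, so it gives values and no test. Pairing of ChIP with input by replicate was not possible because each genotype has 1 input library. In simulated counts at this depth, with the dispersion of every bin set to the floor, the fit called 51% of bins seeded with a shift of 0.1. The count of calls in the real data rests on a spread estimated from 1 degree of freedom per bin.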
